A study of Homo sapiens with 4 samples.

Results

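The genes described are those of the matrix metalloproteinases (MMPs), their tissue inhibitors (TIMPs) and the ADAMTS proteases, measured in OVSAYO cells, a human line derived from an ovarian clear cell carcinoma (CCC). Members were chosen by the symbol to which the RefSeq accession of a probe maps, that is MMP or ADAMTS with a number or TIMP1 to TIMP4. The symbols alone set the membership, although the families were picked with earlier results of these data known. They numbered 46 of 17718 genes with a symbol on the array, namely 23 MMP, 4 TIMP and 19 ADAMTS genes, and were read by 62 probes. A single probe read 32 of them, 12 had 2 probes and 2 had 3 probes. The values described are the processed signal of the scanner software on 4 arrays and its call, for each spot, of whether the signal was well above background.

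MMPs are zinc-dependent endopeptidases that are made as inactive proenzymes and cut collagens, other matrix proteins, growth factors and cell surface proteins. Most are secreted, and the membrane-type MMPs are held at the cell surface. TIMPs bind the active site of MMPs and block it, and TIMP3 also blocks several ADAM and ADAMTS enzymes. ADAMTS proteases are secreted relatives of the ADAMs that carry thrombospondin repeats, and their known substrates include the proteoglycans aggrecan and versican, procollagens and von Willebrand factor. In carcinomas these enzymes are studied for their part in invasion and in the remodelling of the stroma, and many MMP genes are known for promoters that answer to AP-1, the JUN and FOS dimer.

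Each of 4 single-colour arrays, all on 1 slide, held the RNA of 1 culture condition. Cells received a non-specific control siRNA (NS-si) or siRNA against the transcription factor Sp1 (Sp1-si), and were left for 40 h by the labels. The time before CoCl2 is not certain, since a shorter one is given elsewhere in the description of the experiment. Cells of both kinds were then given 0.5 mM CoCl2, a chemical that mimics hypoxia, for 4 h (NS-si → CoCl2 and Sp1-si → CoCl2) or were not exposed to it. All conditions thus shared the transfection, and every statement below is about 1 transfected line. The design asks which genes respond to CoCl2 and whether the response depends on Sp1.

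Since there was 1 array per condition, no difference between conditions could be tested and no p-value is given. Ratios are log2 differences between a pair of arrays after the 75th percentile of each array had been subtracted, and signals are the processed intensities before that step. The error beside a ratio is an SD between spots, the gene's own or that typical of its brightness, which covers the array surface only and not the cultures. It is the spread of single spots, so for a probe with 10 spots it is wider than the error of their mean. A member was called raised or lower where its signal differed at least 2-fold, which is a rule of size and not a test. In RNA of whole cultures, fewer cells that express a gene and less RNA per cell cannot be told apart. The siRNA lowered its target, since the SP1 probe with 10 spots fell from 553 to 39.2 without CoCl2 and from 429 to 38.7 with it. Of the markers of the labelled cell type, 8 of 8 epithelial and CCC genes were well above background on all 4 arrays. Markers of other cells were partly present. Of 8 measured fibroblast and stroma genes, 4 were on all 4 arrays, with a summed signal between 2092 and 2726, whereas COL3A1, PDGFRA and PDGFRB were on none. Of 5 measured macrophage and leukocyte genes, CD14, CD68 and CD3E were on all 4 arrays and PTPRC was on none, with a summed signal of the 5 between 615 and 1234. Of 5 endothelial genes, CLDN5 was on all 4 arrays and the others on none, with a summed signal between 46.9 and 68.0. The part of these markers in the ratios below was not tested.

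Not all members were detected. By at least 1 probe, 35 of the 46 genes (76.1%) were well above background on at least 1 array, against 87.0% of all genes, and 27 (58.7%) on all 4 arrays, against 80.7%. The detected genes were 17 of 23 MMP, 3 of 4 TIMP and 15 of 19 ADAMTS genes. By array, 32 members were detected in NS-si cells, 32 in Sp1-si cells, 30 after CoCl2 in NS-si and 28 after CoCl2 in Sp1-si cells. The lowest probe signal that counted as well above background was 10.2 on the Sp1-si → CoCl2 array and between 6.72 and 7.39 on the others. The 11 genes detected on no array were MMP2, MMP3, MMP8, MMP12, MMP16, MMP27, TIMP4, ADAMTS12, ADAMTS17, ADAMTS19 and ADAMTS20. Their 13 probes read between 1.32 and 9.34. A probe that is not well above background gives only an upper bound on its transcript, so these genes may still be expressed at a low level.

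A further 8 genes were detected on 1 to 3 arrays. MMP13 was detected in Sp1-si → CoCl2 cells only. MMP20 and ADAMTS3 passed in Sp1-si cells only, at signals of 10.3 and 9.12, and ADAMTS4 and ADAMTS18 in NS-si cells only, at 9.27 and 11.7. MMP14, MMP21 and ADAMTS15 passed on every array except that of Sp1-si → CoCl2 cells. For MMP20, ADAMTS3, ADAMTS4, ADAMTS18 and MMP14 the signals lay near the limit of detection, and no comparison called them.

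In the 4 pairs of arrays, most members stayed within the 2-fold limit. With CoCl2 in NS-si cells, 1 of 32 members was raised (3.12%, against 4.15% of all genes) and 3 were lower (9.38%, against 3.60%). With CoCl2 in Sp1-si cells, 1 of 33 was raised (3.03%, against 3.71%) and 2 were lower (6.06%, against 3.91%). In Sp1-si relative to NS-si cells, 4 of 34 were raised (11.8%, against 6.15%) and 3 were lower (8.82%, against 6.28%). Under CoCl2, Sp1-si relative to NS-si cells had 6 of 31 raised (19.4%, against 7.29%) and 4 lower (12.9%, against 7.96%). These counts are small, the pairs share arrays and some members are neighbours in the genome, so the shares describe these genes on these arrays. The median log2 ratio of the members was 0.08 and -0.10 for CoCl2 in NS-si and Sp1-si cells, and -0.02 and -0.09 for Sp1-si over NS-si cells without and with CoCl2. The medians of all genes were -0.01, 0.01, -0.02 and -0.01. In all, 12 members were called in at least 1 pair, and 18 members were on all 4 arrays and called in none.

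**Figure D1:**
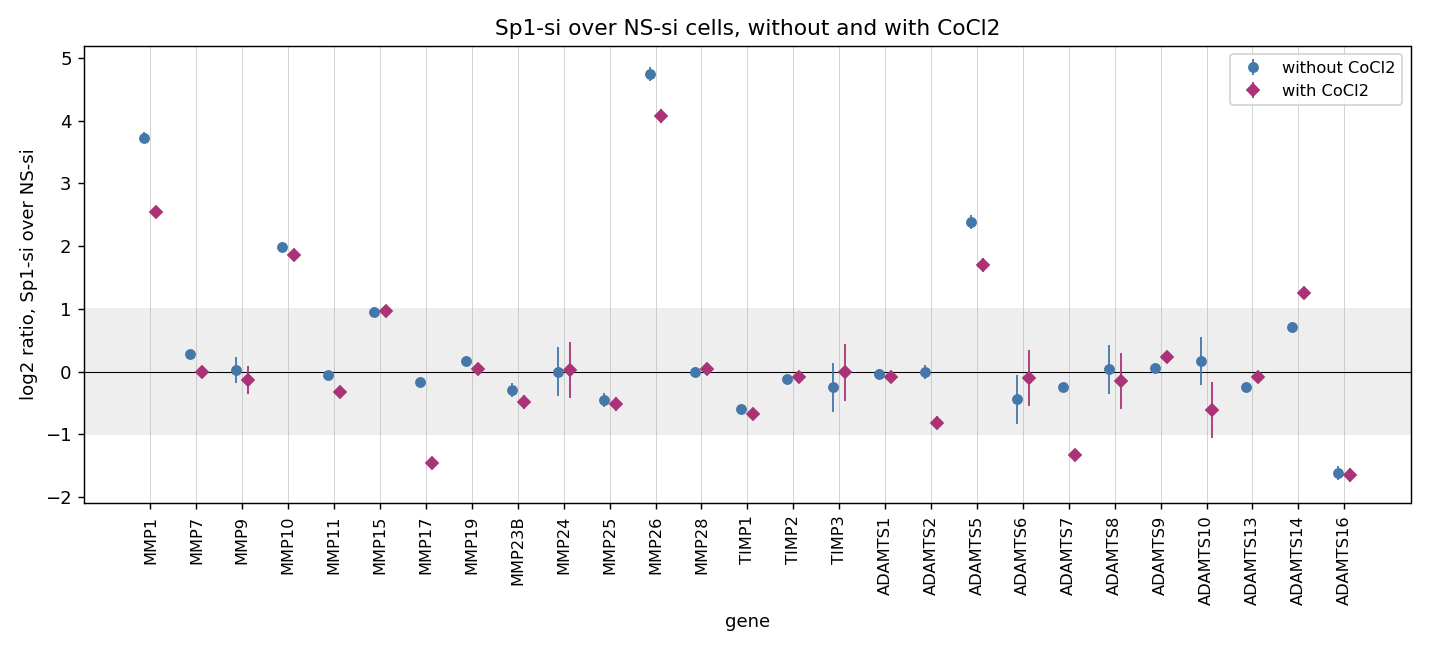
Log2 ratio of Sp1-si over NS-si cells without CoCl2 (circles) and with CoCl2 (diamonds) for the 27 members well above background on all 4 arrays; bars are the SD expected from spots and the grey band marks ratios under 2-fold. MMP26 and MMP1 stand highest in both pairs, and ADAMTS16 is near -1.6 in both. ADAMTS7 and MMP17 (downward) and ADAMTS14 (upward) leave the band only with CoCl2.

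Among the collagenases, which cut the triple helix of fibrillar collagen, MMP1 read differently on all 4 arrays. Its probe has 10 spots on each array, and all were well above background. The median spot read 484 in NS-si, 1272 in NS-si → CoCl2, 6257 in Sp1-si and 9755 in Sp1-si → CoCl2 cells. No range of spots overlapped another, since they ran from 456 to 513, 1184 to 1378, 5736 to 6726 and 9054 to 10579 in the same order. MMP1 was thus higher in both kinds of Sp1-si cells than in either kind of NS-si cells. The log2 ratio of Sp1-si to NS-si cells was 3.73 (SD between spots 0.090), a 13.3-fold difference, and under CoCl2 it was 2.55 (SD 0.094), or 5.86-fold. CoCl2 raised MMP1 in NS-si cells by 1.61 (SD 0.092) on the log2 scale, whereas the ratio in Sp1-si cells was 0.43.

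MMP13, the collagenase known from cartilage and bone, read 1.56 in NS-si, 1.44 in NS-si → CoCl2 and 2.11 in Sp1-si cells, none of them well above background, and 49.6 in Sp1-si → CoCl2 cells. It was the only member seen on that array alone. Its signal there was at least 6.33-fold higher than in Sp1-si cells and at least 5.46-fold higher than in NS-si → CoCl2 cells, and the call rests on 1 spot. A normexp background correction, chosen after seeing the data, was followed by quantile normalization. With both, these bounds fell under the 2-fold limit, to 0.70 and 0.77 on the log2 scale. That correction adds an offset of 50 to every signal, which by itself shrinks ratios of signals this dim. The drop is therefore no separate evidence on the call. MMP8, the neutrophil collagenase, was detected nowhere.

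**Figure D2:**
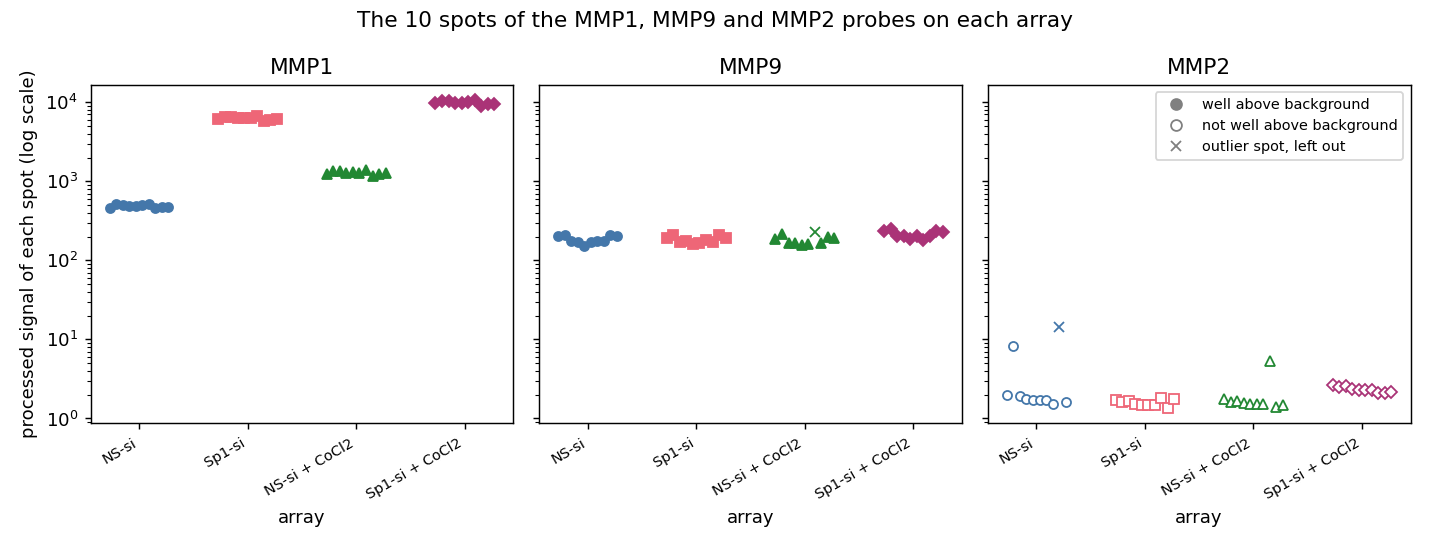
Processed signal (log scale) of each of the 10 spots of the MMP1, MMP9 and MMP2 probes on each array; filled symbols are well above background, open symbols are not and crosses are outlier spots that were left out. The spots of MMP1 form 4 separate bands, those of MMP9 overlap on all arrays between 154 and 246, and those of MMP2 stay at the bottom of the scale.

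The gelatinases, which cut denatured collagen and the collagen of basement membranes, were each read by 10 spots too. MMP9 had median spot signals of 176 in NS-si, 166 in NS-si → CoCl2, 176 in Sp1-si and 206 in Sp1-si → CoCl2 cells. Its spot ranges overlapped on all arrays, and its log2 ratios lay between -0.13 and 0.16, inside an SD of single spots of 0.20 to 0.22. That SD is wider than the error of a mean over 10 spots, so it cannot exclude a small difference. The MMP2 probe was well above background on none of the arrays, with a median spot between 1.55 and 2.30.

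The stromelysins cut proteoglycans, laminin and other matrix proteins and can activate procollagenases. MMP10 read 302 in NS-si, 137 in NS-si → CoCl2, 1159 in Sp1-si and 651 in Sp1-si → CoCl2 cells. It was high in both Sp1-si conditions, and in each kind of cell it was lower with CoCl2 than without. The log2 ratio of Sp1-si to NS-si was 1.99 (SD 0.079), or 3.96-fold, and 1.86 (SD 0.077), or 3.62-fold, under CoCl2. The CoCl2 ratio was -0.92 in NS-si cells, just inside the 2-fold limit, and -1.05 in Sp1-si cells, just outside it. Without scaling between arrays these became -1.14 and -0.83, so that the call moved from one kind of cell to the other. MMP11, which despite its name cuts few matrix proteins, lay between 1642 and 1985, with log2 ratios from -0.32 to 0.32. MMP3 was not detected.

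The matrilysins are the smallest MMPs, since they lack the hemopexin domain. MMP26 read 20.8 in NS-si, 18.5 in NS-si → CoCl2, 541 in Sp1-si and 409 in Sp1-si → CoCl2 cells. It was dim in both NS-si conditions and bright in both Sp1-si conditions, with log2 ratios of 4.75 (SD 0.11), or 26.9-fold, without CoCl2 and 4.08 (SD 0.11), or 16.9-fold, with it. These were above the ratios of MMP1, but with the normexp correction MMP26 fell to 3.05 and 2.49, below MMP1 at 3.62 and 2.51. The offset of 50 in that correction weighs on a probe as dim as that of MMP26 in NS-si cells and far less on MMP1. The changed order therefore does not rank these genes. The CoCl2 ratio was 0.05 in NS-si cells and -0.62 after Sp1 silencing. MMP7, an epithelial protease and a known target of Wnt signalling, behaved otherwise. It read 214966 in NS-si, 192423 in NS-si → CoCl2, 252625 in Sp1-si and 252774 in Sp1-si → CoCl2 cells, with no spot saturated, and its log2 ratios lay between -0.22 and 0.28.

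The promoters of MMP10 and MMP26, which were higher in Sp1-si cells, and of MMP7, which was not, are given for comparison of their short motifs. Each sequence is the 250 bases before the RefSeq start of the gene on GRCh38.p14, and capitals mark matches, on either strand, to AP-1 (TGANTCA), the GC box bound by Sp1 (GGGCGG) and the core of the Tcf/Lef site of Wnt signalling (CTTTGA or CTTTGT).
MMP10, chr11:102780629-102780878, minus strand: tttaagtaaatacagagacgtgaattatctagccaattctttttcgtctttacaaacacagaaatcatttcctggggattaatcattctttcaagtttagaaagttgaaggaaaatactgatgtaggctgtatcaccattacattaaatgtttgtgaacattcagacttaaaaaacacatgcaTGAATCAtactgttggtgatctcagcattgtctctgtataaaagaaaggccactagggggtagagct
MMP7, chr11:102530748-102530997, minus strand: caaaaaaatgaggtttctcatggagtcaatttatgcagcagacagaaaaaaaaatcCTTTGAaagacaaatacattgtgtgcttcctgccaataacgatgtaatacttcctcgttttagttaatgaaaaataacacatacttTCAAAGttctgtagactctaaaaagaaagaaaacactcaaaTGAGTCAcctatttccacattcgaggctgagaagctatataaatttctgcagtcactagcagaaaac
MMP26, chr11:4704534-4704783, plus strand: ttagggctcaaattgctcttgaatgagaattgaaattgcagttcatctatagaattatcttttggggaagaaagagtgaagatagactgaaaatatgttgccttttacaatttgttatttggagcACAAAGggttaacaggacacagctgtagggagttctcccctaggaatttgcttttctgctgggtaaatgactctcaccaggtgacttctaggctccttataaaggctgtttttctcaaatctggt
MMP10 and MMP7 each hold an AP-1 match whose first base lies 67 bases before the start, although only MMP10 was called. MMP7 also holds a pair of Tcf/Lef matches and MMP26 has 1, that of MMP10 lies past the start, and none of the 3 windows holds a GC box.

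Of all 46 members, 27 had an entry among the RefSeq promoters, which span 300 bases and reach 50 bases past the start. A GC box stood in 19 of these 27 (70.4%), against 45.0% of 35116 promoters in the table, and was spread unevenly among the families, with 11 of 12 ADAMTS, 3 of 3 TIMP and 5 of 12 MMP genes. AP-1 matched in MMP7, MMP10, MMP20 and ADAMTS12 (14.8%, against 7.71%). The core of the hypoxia response element (ACGTG or GCGTG, on either strand) matched in 51.9% of members and 48.4% of all promoters, and the Tcf/Lef core in 18.5% and 26.2%. Of the members called raised in Sp1-si cells with an entry (ADAMTS14, MMP10 and MMP26), only ADAMTS14 holds a GC box, and of those called lower (ADAMTS7 and MMP21), only ADAMTS7 does. Each member counts by a single promoter. The share of all promoters is over every entry, not limited to a single one per gene or to genes on the array. These are matches of letters in a short window and not measured binding. The MMP1, MMP13, ADAMTS5, ADAMTS15, ADAMTS16 and MMP17 promoters had no entry.

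On chromosome 11, 9 of the MMP genes follow each other with no other protein-coding gene between them in the RefSeq table, in the order MMP7, MMP20, MMP27, MMP8, MMP10, MMP1, MMP3, MMP12 and MMP13. Of these 9, 3 were on all 4 arrays and 4 on none. The neighbours MMP10 and MMP1 were both raised in Sp1-si cells in both pairs, but with CoCl2 they went opposite ways in NS-si cells, at -0.92 and 1.61. MMP3, the gene next to MMP1 on its other side, was not detected. MMP26 lies elsewhere on the same chromosome.

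**Figure D3:**
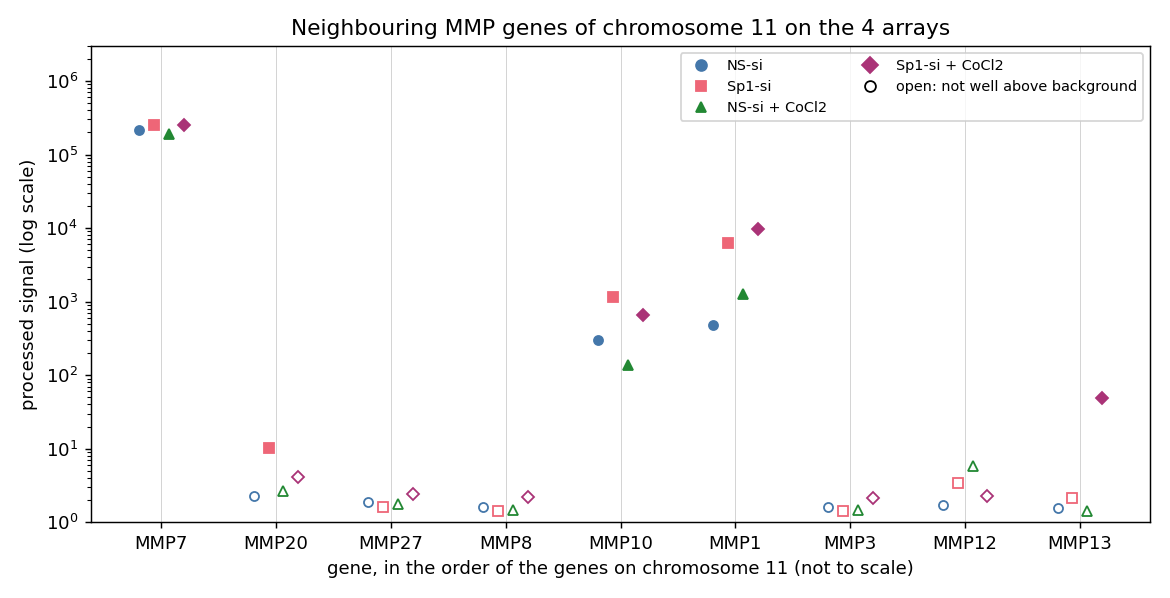
Processed signal (log scale) on the 4 arrays of 9 MMP genes that follow each other on chromosome 11, in gene order and not to scale; filled symbols are well above background and open symbols are not. The genes that differ (MMP10, MMP1 and MMP13) stand beside genes detected on no array (MMP27, MMP8, MMP3 and MMP12), and heights are comparable only within a gene.

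The membrane-type MMPs are anchored to the cell surface. MMP17, which is held by a lipid (GPI) anchor, read 2093 in NS-si, 3562 in NS-si → CoCl2, 1805 in Sp1-si and 1710 in Sp1-si → CoCl2 cells. The NS-si → CoCl2 array was the high one of the 4. The CoCl2 ratio was 0.98 (SD 0.070) in NS-si cells, just short of the limit, and -0.30 in Sp1-si cells, and under CoCl2 the log2 ratio of Sp1-si to NS-si cells was -1.45 (SD 0.068), or 2.73-fold lower. MMP15, a transmembrane type, read 318 in NS-si, 295 in NS-si → CoCl2, 595 in Sp1-si and 751 in Sp1-si → CoCl2 cells. It was higher on both Sp1-si arrays, with log2 ratios of 0.95 and 0.96, just under the limit, while its other, dimmer probe gave 1.15 and 1.56. Under CoCl2 the brighter probe passed the limit without scaling, at 1.35, and also with median scaling and with the deposited value table, so that 7 members instead of 6 were raised in that pair. MMP25, another GPI-anchored type, lay between 88.9 and 162, with CoCl2 ratios of 0.59 and 0.52. MMP24 was dim, between 20.6 and 35.2, and its ratios of 0.52 and 0.55 with CoCl2 had an SD of 0.40 to 0.43. MMP14, the activator of proMMP2, was near the limit of detection, between 10.7 and 12.7, and MMP16 was not detected.

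Among the remaining MMPs, MMP21, a protease known from left-right patterning of the embryo, read 24.3 in NS-si, 9.44 in NS-si → CoCl2 and 7.11 in Sp1-si cells, and 6.67, not well above background, in Sp1-si → CoCl2 cells. With Sp1 silenced it was called lower (log2 ratio -1.72, SD 0.39) and likewise with CoCl2 in NS-si cells (-1.15, SD 0.43). These signals are close to the background. The normexp correction, whose offset shrinks such ratios by itself, brought both under the limit, to -0.38 and -0.25. MMP28, known from skin and testis, lay between 361 and 545 by its brighter probe, and MMP23B between 116 and 150, with no ratio over 0.48 in size for either. MMP23B has a near-identical copy, MMP23A, which its probe may also read. MMP20, the enamel protease, and MMP12, the macrophage elastase, gave no ratio, since they were detected on 1 and 0 arrays.

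MMP19 was read differently by its 3 probes. The brightest lay between 1129 and 1533, with log2 ratios on silencing of Sp1 of 0.17 without and 0.05 with CoCl2. Another probe (A_23_P203882) read 149 in NS-si, 115 in NS-si → CoCl2, 450 in Sp1-si and 443 in Sp1-si → CoCl2 cells, which gives 1.64 and 1.56. The third (A_24_P184445) gave 0.30 and 0.26. Hence a call for MMP19 depends on the probe, and which transcripts each probe reads was not tested.

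Of the 4 inhibitors, 3 were detected, and none was called in any pair. TIMP2, which also takes part in the activation of proMMP2, read 41018 in NS-si, 40435 in NS-si → CoCl2, 36610 in Sp1-si and 49590 in Sp1-si → CoCl2 cells, and its log2 ratios lay between -0.12 and 0.22. TIMP1 read 3320 in NS-si, 2644 in NS-si → CoCl2, 2121 in Sp1-si and 2177 in Sp1-si → CoCl2 cells. It was lower on both Sp1-si arrays, with log2 ratios of -0.60 (SD 0.072) and -0.67 (SD 0.068), which exceed the spread of spots but are under 2-fold. TIMP3, the inhibitor bound to the matrix, was dim, between 10.3 and 15.1, and its ratios of -0.34 to -0.01 were within an SD of 0.39 to 0.45. TIMP4 was not detected.

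Of the ADAMTS genes that cut aggrecan and versican, ADAMTS5, the main aggrecanase of mouse cartilage, was called in all 4 pairs. It read 82.7 in NS-si, 19.8 in NS-si → CoCl2, 416 in Sp1-si and 84.4 in Sp1-si → CoCl2 cells. It was higher with Sp1 silenced and lower with CoCl2, so that the signals of NS-si and Sp1-si → CoCl2 cells were close. The log2 ratios on silencing of Sp1 were 2.38 (SD 0.11), or 5.19-fold, without and 1.70 (SD 0.11), or 3.26-fold, with CoCl2. The CoCl2 ratio was -1.85 in NS-si cells and -2.52 after Sp1 silencing. With the normexp correction, whose offset shrinks ratios of dim probes by itself, the first of these was -0.84. The Sp1-si ratio under CoCl2 was then 0.79, so that both were under the limit. The other ratios were 1.75 for Sp1-si over NS-si cells and -1.81 for CoCl2 in Sp1-si cells. ADAMTS1, its neighbour on chromosome 21, which also cuts versican, read 1777 in NS-si, 1176 in NS-si → CoCl2, 1685 in Sp1-si and 1449 in Sp1-si → CoCl2 cells. It had ratios of -0.03 and -0.09 with Sp1 silenced, and of -0.38 and -0.44 with CoCl2, which its second probe gave as -0.45 and -0.49.

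ADAMTS15, another proteoglycanase, read 28.8 in NS-si, 15.8 in NS-si → CoCl2 and 9.95 in Sp1-si cells, and 8.32, not well above background, in Sp1-si → CoCl2 cells. It was lower with Sp1 silenced, with a log2 ratio of -1.49 (SD 0.39) without CoCl2 and a signal at least 2.02-fold lower with it. Both values are from a dim probe. The normexp correction, whose offset shrinks such ratios by itself, brought them to -0.47 and -0.16. The bound under CoCl2 was also under the limit with each other scaling, down to -0.63 on the log2 scale without scaling. Its neighbour on chromosome 11, ADAMTS8, was at 11.1 to 13.1 on all 4 arrays. ADAMTS9, also a versicanase, lay between 5254 and 8060 by its brighter probe, with CoCl2 ratios of -0.22 and -0.05, while the dimmer probe gave 0.71 and 0.63. ADAMTS4 and ADAMTS20 gave no call, the second being undetected.

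ADAMTS2, ADAMTS3 and ADAMTS14 remove the N-terminal propeptide of fibrillar procollagens. ADAMTS14 read 804 in NS-si, 361 in NS-si → CoCl2, 1284 in Sp1-si and 1136 in Sp1-si → CoCl2 cells. The NS-si → CoCl2 array was the low one, and the log2 ratio of Sp1-si to NS-si cells was 0.72 (SD 0.079) without and 1.26 (SD 0.077) with CoCl2. A dimmer probe for ADAMTS14 read 47.5 to 63.9, with ratios of -0.02 and 0.04 in the same pairs, so the call rests on 1 of 2 probes. ADAMTS2 lay between 73.5 and 106, and its low value, in Sp1-si → CoCl2 cells, gave -0.81 relative to NS-si → CoCl2 cells. The other probe for ADAMTS2 was detected on no array.

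ADAMTS7, which cuts cartilage oligomeric matrix protein, read 12177 in NS-si, 12289 in NS-si → CoCl2, 9965 in Sp1-si and 6402 in Sp1-si → CoCl2 cells. The Sp1-si → CoCl2 array was the low one, at a log2 ratio of -1.33 (SD 0.061), or 2.51-fold, to NS-si → CoCl2 cells, against -0.24 (SD 0.059) without CoCl2. Without scaling between arrays, the ratio under CoCl2 was -0.94 and thus under the limit. ADAMTS16, an orphan protease, read 213 in NS-si, 278 in NS-si → CoCl2, 67.0 in Sp1-si and 116 in Sp1-si → CoCl2 cells. It was low on both Sp1-si arrays, with log2 ratios of -1.62 and -1.65 (SD 0.11 each), or 3.08-fold and 3.13-fold lower, and its other probe gave -1.05 and -0.95. The CoCl2 ratio of ADAMTS16 was 0.60 without and 0.57 with Sp1 silenced. ADAMTS13, which cuts von Willebrand factor, lay between 1623 and 2065 by its brightest probe, with no ratio over 0.25 in size. A dimmer probe gave -0.33 for Sp1-si relative to NS-si cells under CoCl2.

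ADAMTS6 and ADAMTS10 form a pair that is known to act on fibrillin microfibrils. ADAMTS6 read 52.1 in NS-si, 21.9 in NS-si → CoCl2, 37.1 in Sp1-si and 26.8 in Sp1-si → CoCl2 cells. Its CoCl2 ratio in NS-si cells of -1.03 (SD 0.43) counted as lower. It was -0.50 with the normexp correction, whose offset shrinks ratios of dim probes by itself. The other ADAMTS6 probe was well above background in NS-si cells only, at 55.8, where it stood at least 8.03-fold higher than in Sp1-si cells and at least 6.92-fold higher than in NS-si → CoCl2 cells. These probes disagree on Sp1-si relative to NS-si cells, for which the first gave -0.44 (SD 0.39). ADAMTS10 was dim, between 12.5 and 16.6, and its ratios ran from -0.61 (SD 0.45) to 0.63 (SD 0.43).

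The promoters of ADAMTS7 and ADAMTS14 show the GC boxes that were common among the ADAMTS genes, in a gene that was lower and a gene that was higher in Sp1-si → CoCl2 cells. Capitals and the genome build are as for the MMP promoters.
ADAMTS7, chr15:78811465-78811714, minus strand: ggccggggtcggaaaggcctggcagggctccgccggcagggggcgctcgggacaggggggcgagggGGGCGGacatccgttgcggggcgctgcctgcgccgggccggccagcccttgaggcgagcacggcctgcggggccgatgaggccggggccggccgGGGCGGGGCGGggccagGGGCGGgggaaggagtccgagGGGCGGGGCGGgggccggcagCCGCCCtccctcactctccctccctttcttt
ADAMTS14, chr10:70672256-70672505, plus strand: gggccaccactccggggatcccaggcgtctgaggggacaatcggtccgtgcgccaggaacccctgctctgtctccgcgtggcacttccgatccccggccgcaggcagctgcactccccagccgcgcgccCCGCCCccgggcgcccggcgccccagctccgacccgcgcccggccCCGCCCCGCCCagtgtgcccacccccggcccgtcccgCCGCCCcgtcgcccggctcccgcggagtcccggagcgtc
ADAMTS7 holds 7 matches to GGGCGG or its complement and ADAMTS14 holds 5, of which 1 lies past the start and is not printed, and some of them overlap. Neither window holds an AP-1 or a Tcf/Lef match.

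**Figure D4:**
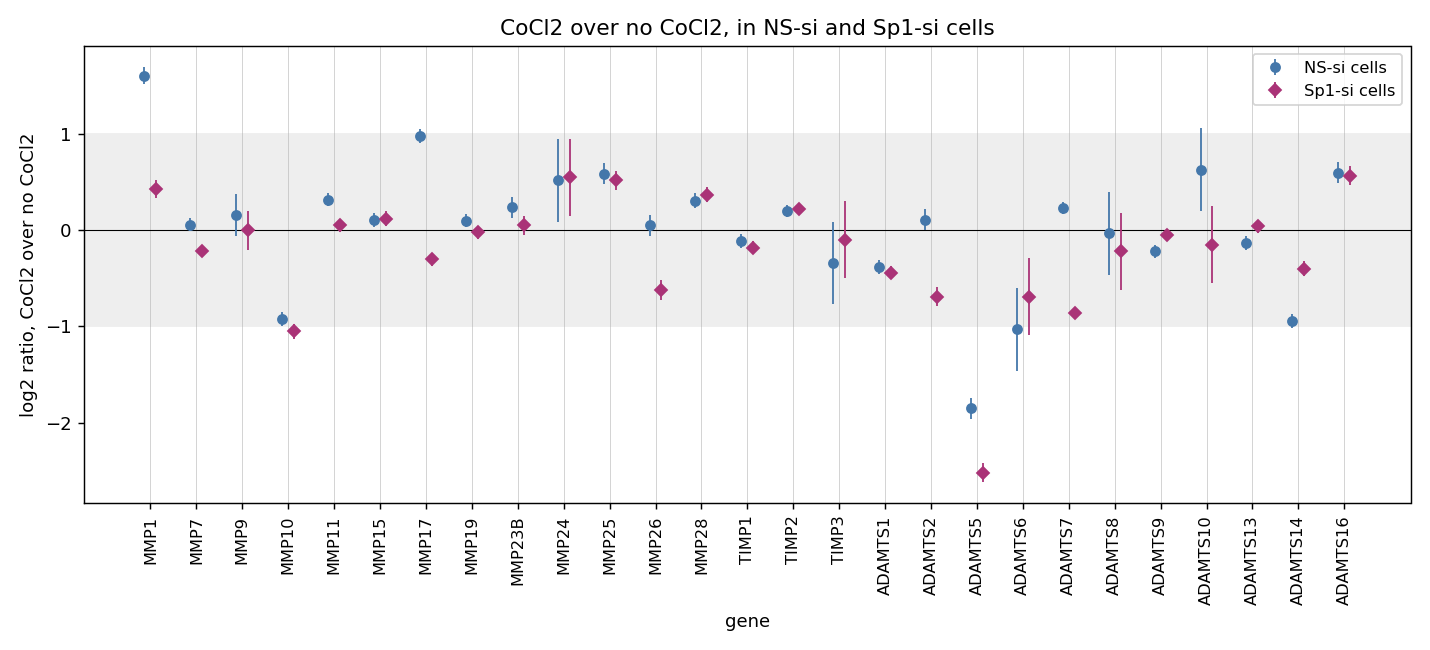
Log2 ratio of CoCl2-treated over untreated cells in NS-si (circles) and Sp1-si cells (diamonds) for the 27 members well above background on all 4 arrays; bars are the SD expected from spots and the grey band marks ratios under 2-fold. ADAMTS5 is lowest in both, MMP1 leaves the band upward in NS-si cells only, and MMP17 and ADAMTS7 lie lower after Sp1 silencing.

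The CoCl2 ratio of a member could also be set beside itself in both kinds of cells. Over 27 members on all 4 arrays, the ratio in Sp1-si minus that in NS-si cells had a median of -0.12, against 0.03 over all genes, and ran from -1.28 to 0.54. It was at most -1 for 3 members and at least 1 for 0, that is 11.1% past 1 in size, against 3.79% of 14285 genes. The 3 were MMP17 (-1.28, SD 0.098), MMP1 (-1.18, SD 0.13) and ADAMTS7 (-1.09, SD 0.087). Only for MMP17 and ADAMTS7 did it go with a lower signal in Sp1-si → CoCl2 than in NS-si → CoCl2 cells, since MMP1 was already high in Sp1-si cells before CoCl2. Without scaling between arrays, which moved the median log2 ratio of Sp1-si → CoCl2 to NS-si → CoCl2 cells by 0.39, the differences for MMP17, MMP1 and ADAMTS7 were -0.85, -0.75 and -0.65, all under 1 in size. With 1 array per condition, no interaction could be tested.

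Genes that act with the members were looked at as 4 lists. Of 13 ADAM proteases, which shed proteins from the cell surface, ADAM17, the TNF convertase, read 11548 in NS-si, 12420 in NS-si → CoCl2, 4282 in Sp1-si and 4728 in Sp1-si → CoCl2 cells, with log2 ratios of -1.38 and -1.78. ADAM10 was called lower (-1.23) and ADAM19 raised (1.08) under CoCl2 only, but without CoCl2 they were just inside the limit, at -0.90 and 0.97. ADAM8 was raised by CoCl2 in NS-si cells at the 2-fold limit. For Sp1-si relative to NS-si cells, 1 of 12 genes was lower without CoCl2, where 6.28% of all genes were. Under CoCl2, 2 of 11 were lower and 1 was raised, where 7.96% and 7.29% were. With CoCl2 in NS-si cells, 1 of 12 was raised, where 4.15% of all genes were. The median of the 11 ADAM genes on both arrays was -0.51 for Sp1-si over NS-si cells and -0.41 under CoCl2, against -0.02 and -0.01 for all genes. Of 7 ADAMTS-like proteins, which lack the protease domain, only ADAMTSL3 was called. It was lower in Sp1-si relative to NS-si cells without and with CoCl2, where 6.28% and 7.96% of all genes were. It was also lower with CoCl2 in Sp1-si cells, where 3.91% were. The medians of the 7 in these pairs were 0.05, -0.52 and -0.64, against -0.02, -0.01 and 0.01 for all genes. With CoCl2 in NS-si cells their median was 0.21, against -0.01. ADAMTSL3 read 1008 in NS-si, 876 in NS-si → CoCl2, 375 in Sp1-si and 163 in Sp1-si → CoCl2 cells.

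Of 22 activators, clearance receptors and other inhibitors, 20 were detected on at least 1 array. With CoCl2, PLAUR, the urokinase receptor, was the only one raised in both kinds of cells, from 400 to 1305 in NS-si and from 434 to 1327 in Sp1-si cells. This is 1 of 19 genes in NS-si and 1 of 20 in Sp1-si cells, where 4.15% and 3.71% of all genes were raised, and 0 were lower in either. Sp1-si relative to NS-si cells had 2 of 20 raised and 3 lower without CoCl2, where 6.15% and 6.28% of all genes were, and 3 raised and 2 lower with it, where 7.29% and 7.96% were. RECK, a membrane-bound inhibitor of MMPs, read 375 in NS-si, 328 in NS-si → CoCl2, 1768 in Sp1-si and 1954 in Sp1-si → CoCl2 cells, with log2 ratios of 2.29 and 2.19. LRP1, a receptor that clears MMPs and TIMPs, was also raised (1.55 and 1.72), and PLAT, the tissue plasminogen activator, was lower (-2.46 and -2.10). The others called, named after their values were seen, were TFPI2, CD44 and PCOLCE. TFPI2 was lower in both pairs. CD44 was called lower without CoCl2 only (-1.09, against -0.98 with it), and PCOLCE raised with CoCl2 only (1.13, against 0.62 without). Of 21 measured matrix substrates, 19 could be compared in each pair. None of the 19 was called with CoCl2, where 3.60% to 4.15% of all genes were called in each direction. Relative to NS-si cells, 2 of 19 were lower in Sp1-si cells without CoCl2 (COL1A2 and LUM, against 6.28% of all genes) and 2 of 19 with it (COL1A2 and COL4A1, against 7.96%), and 0 were raised in either pair. COL1A2 read 77.5 in NS-si, 67.2 in NS-si → CoCl2, 8.69 in Sp1-si and 11.7 in Sp1-si → CoCl2 cells. COL1A2 and LUM are also on the list of fibroblast markers, whose part in these values was not tested.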

How the data were processed

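Total RNA of 4 cultures of OVSAYO cells was labelled with Cy3 and hybridised to 4 arrays. The authors deposited intensities in the form Agilent Feature Extraction 10.5.1.1 gave them, as processed signals with the background subtracted and no scaling between arrays. The authors' value table equals these intensities times 1 constant per array, of 1.4252, 1.5200, 1.5803 and 1.2532, and the text of the paper gives no normalization.

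Spots flagged as outliers were left out, log2 signals were averaged over the spots of a probe, and the 75th percentile over non-control probes was subtracted. A probe counted as detected where at least 50% of its spots were well above background. A gene took its probe with the highest mean signal. Ratios were called at 2-fold with both arrays detected. With only the higher array detected, the dim side was set at the higher of its own signal and the lowest detected signal of its array, and that bound had to reach 2-fold. Probes were named by RefSeq accession, which named 26222 of 41000 probes. The annotation of the array uses hg18, and promoters are from a GRCh38.p14 table, so no probe coordinates are given. Members, gene lists and motifs were chosen with earlier results of these data known. Members on all 4 arrays or called in a pair are named with their values, the rest with their ranges or by symbol. At most 4 called genes per related list were to be named.

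With 1 array per condition, precision is limited by the number of arrays, and the SD beside a ratio is that of the probe's own spots for MMP1 and MMP9, which have 10, and otherwise the median over 264 probes with 10 spots, in 5 bins of signal. The code for the calls was tested on simulated data with changes planted in bright probes. Dim probes and the rule for bounds were not tried there. Alternatives were other scalings, the authors' value table, outlier spots kept, the mean over probes, and limits of 1.5-fold and 3-fold. A further alternative was a normexp correction with an offset of 50, followed by quantile normalization, which gives all arrays the same distribution of signals. Calculations were done in R 4.3.3 with limma 3.58.1 and in Python 3.11.15 with pandas 2.3.3, numpy 2.4.6 and matplotlib 3.10.9.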

Additional observations from a re-analysis of the deposited data

How the results depend on the processing

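None of 24 called ratios or bounds changed direction in 8 other processings, 192 recomputed values in all. Calls start at 1 in size and the scalings moved the median of a pair by up to 0.39. A change of direction could therefore hardly occur, and the sizes below say more. Median scaling left 1 member lower with CoCl2 in Sp1-si cells and gave a median difference of the CoCl2 ratios of 0.00. Without scaling, 5 were lower with CoCl2 in NS-si cells, 1 with CoCl2 in Sp1-si cells and 2 in Sp1-si → CoCl2 relative to NS-si → CoCl2 cells, and the median difference was 0.32. The median log2 ratio of all genes shifted by -0.22, 0.22, -0.05 and 0.39 without scaling. A normexp correction was planned on mean signals, but the scanner data held no mean signals of spots. Median signals took their place, a choice made after seeing the data, and quantile normalization followed the correction. The correction left 0 lower with CoCl2 in NS-si cells, 0 raised with CoCl2 in Sp1-si cells and 1 lower in Sp1-si relative to NS-si cells. The normexp correction on mean signals was thus not run. The offset of 50 in the correction shrinks ratios of dim probes by itself, so calls of dim members lost there are no separate evidence. A limit of 1.5-fold gave 5 raised and 6 lower with CoCl2 in NS-si cells, 6 lower with CoCl2 in Sp1-si cells, and 5 and 7 lower in Sp1-si relative to NS-si cells without and with CoCl2. A limit of 3-fold gave 1 lower in each of the CoCl2 pairs and 1 lower in Sp1-si → CoCl2 relative to NS-si → CoCl2 cells. The other counts stayed within 1.5 times. No paired analysis was possible because there was 1 array per condition. The array surface, and not the cultures, sets every error given. Dim members such as MMP21, ADAMTS15 and ADAMTS6, and MMP13 on the arrays where it was not detected, are limited by signal over background.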
